A study of Rattus norvegicus with 12 samples.

Results

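The 6 tumours described here grew from rat 9L gliosarcoma cells that carried EGFRvIII, and they are all the arrays labelled 9L.EGFRvIII among the 12 arrays of the series. The other 6 arrays, of empty-vector 9L tumours, entered only the background correction and the quantile normalization and are not compared with them. Each tumour came from a separate untreated female Fisher rat of 4 to 6 weeks. The cortex had received the cells in 10 µL at a depth of 2 mm, and tumours were taken after 3 weeks. The EGFRvIII gene had been transfected in the plasmid pcDNA3.1(+) with Lipofectamine, and cells had been selected with zeocin; the labels do not say whether they were a clone or a pool. Roughly 100 ng RNA from each tumour was amplified and hybridised to 1 Illumina RatRef-12 bead array, and tumours are called rats 1 to 6 after their labels.

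EGFRvIII is a form of the epidermal growth factor receptor that lacks part of the ligand-binding domain and signals without ligand. The 9L line is a gliosarcoma, a tumour with glial and mesenchymal traits, and when it is grown in the brain its RNA comes mixed with that of infiltrating immune cells, vessels, blood and neighbouring brain. Interferon gamma, made by T and NK cells, switches on MHC genes and induces the chemokines Cxcl9, Cxcl10 and Cxcl11, which attract T cells through the receptor Cxcr3. In such bulk samples fewer cells of a type and less RNA per cell cannot be told apart.

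Signals are given as normalized log2 values, in which 1 unit is a 2-fold step. A gene was represented by its brightest probe and counted as detected where the detection p was under 0.05 on at least 3 of the 6 arrays. This held for 11586 genes, 8322 with a symbol and 3264 known here by probe only, and 9778 of them were detected on all 6 arrays. Between 11182 (rat 2) and 12040 (rat 3) of 22523 probes were detected per array, and the 75th percentile of the deposited signal lay between 98.65 (rat 6) and 121 (rat 4). Pearson's r between arrays over detected genes was lowest for rats 2 and 6, at 0.953, and highest for rats 2 and 5, at 0.990. Genes of glial and mesenchymal cells detected on all 6 arrays included the intermediate filament gene Vim at 12.48 to 13.00, the neural stem cell filament Nes at 8.58 to 9.33 and the collagen chain Col1a2 at 11.41 to 11.91; Vim and Nes were picked after their values were seen. Aqp4 and Fgfr3 of the astrocyte list and Lum and Fmod of the fibroblast list were each detected on 1 array only.

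The rat Egfr probe was not detected on any of the 6 arrays. The sources do not say whether this probe can read the introduced transcript, and it is no check of the label. Among 15 EGF receptor family genes and ligands on the array, 9 were detected and 2 (22.2%) had a range of at least 2-fold between the highest and the lowest tumour, near the 17.7% of all detected genes. Hbegf, which encodes a ligand of the receptor, was at 6.56, 8.37, 7.24, 7.63, 7.75 and 6.95 in rats 1 to 6, a 3.49-fold range. Lrig1, a negative regulator of the receptor, was at 6.88, 6.83, 5.85, 6.18, 6.30 and 6.74. Neither gene was lowest in rats 2 and 5, as many immune genes below were. Hbegf had the reverse order, with rats 2 and 5 highest and rats 1 and 6 lowest. It left no clear gap, with 7.75 in rat 5 and 7.63 in the next tumour. The feedback inhibitor Errfi1 lay between 8.34 and 8.91, and the receptor genes Erbb2 and Erbb4 were dim, with no tumour above 5.34 and 5.47 respectively.

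The brightest probes were in part shared by all tumours. Of the 100 brightest genes on each array, 47 were shared by all 6 arrays, and 29 of these have a symbol. Ranks are ranks of probe signal, which also depends on the probe, and are not an order of transcript number. Of the 100 genes with the highest mean, 27 encode cytosolic ribosomal proteins and 6 belong to the cytoskeleton list. Among those with a symbol the first was Txn1, the redox protein thioredoxin, with a mean of 13.40 and an SD of 0.11 (n = 6). A dimmer detected probe of Txn1 had a range of 0.85 (log2), against 0.27 for the brightest, with r = 0.885 between them over 6 tumours. The next with a symbol were Rplp0, Rpl10, Rack1, Lgals1 and Actb, which make ribosomal proteins, a ribosomal scaffold, the lectin galectin 1 and beta actin. Lgals1 was at 13.33, 13.29, 13.30, 13.15, 13.26 and 13.24 in rats 1 to 6 (SD 0.06, n = 6). Then came Ppia, Cox6a1, Rpl6, Rps7, Tuba1b, Rps25, Atp6v0c, Oaz1, Tpt1, Atp5f1b, Rps10, S100a11, S100a4 and Ctsl. The calcium-binding proteins S100a4 and S100a11 and the lysosomal protease Ctsl (cathepsin L) thus stood beside genes of protein synthesis and respiration. These 20 genes had SDs of 0.06 to 0.21, and none had a range above 1.49-fold. The highest values on an array are set equal to those of the other arrays by quantile normalization, which narrows the range at this end.

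Genes that held steady were counted in the middle of the brightness scale, away from the floor and that ceiling. This middle was a mean of at least 8 and below the brightest 5% of genes. There 158 of 3541 genes (4.46%) were constant, with no more than 0.25 between the highest and the lowest tumour. The count also depended on the quantile step: it was 52 with arrays scaled to the same median instead. The steadiest with a symbol was Tial1, an RNA-binding protein of splicing and translation, at 9.52, 9.49, 9.47, 9.47, 9.51 and 9.47 in rats 1 to 6. Ccar1, a cell cycle and apoptosis regulator, was at 9.32, 9.27, 9.30, 9.28, 9.32 and 9.28. Cpsf3, which cleaves pre-mRNA at its end, Slu7 and Cdc5l, which act in the spliceosome, Sucla2, a citric acid cycle enzyme, Rab24, Cab39l, Ostm1, Rexo2, Alg5, Pcnp, Cd63, Blvrb and Mcrip1 were the others of the 15 steadiest, with SDs of 0.04 to 0.05. Among the lists, 3 of 14 proteasome subunits of middle brightness were constant (Psmb6, Psmc4 and Psmd6), as were 2 of 11 genes of oxidative phosphorylation (Ndufs3 and Uqcrc1). Cdk1, the kinase that drives entry into mitosis, was at 10.89, 11.05, 10.82, 10.84, 10.94 and 10.92.

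None of the 20 detected reference genes in common use had a range of 2-fold, and their joint score moved by 0.05 over the tumours. They differed among themselves all the same. Actb had an SD of 0.06, Ppia and Tuba1b 0.08 each, and Eef1a1 0.10. Gapdh, a glycolytic enzyme, had an SD of 0.27 and a 1.74-fold range, with 11.91 in rat 2 and 12.71 in rat 6. Tfrc, the transferrin receptor, had the widest range of the set at 1.89-fold, with 7.22 in rat 6 and 8.14 in rat 4. Hprt1, Tbp, B2m, Rpl13a, Rplp0, Ywhaz, Sdha, Pgk1, Gusb, Rps18, Tubb5, Ppib, Ywhae and Top1 fell between, with SDs of 0.08 to 0.26. Every one of 28 cell cycle and DNA replication genes, 28 proteasome subunits and 19 translation factors stayed under 2-fold. The cell cycle score ranged from -0.14 in rat 3 to 0.11 in rat 5, and its most variable member was Ccne2, a cyclin of S phase entry, with a 1.88-fold range.

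Over all detected genes the median range was 0.60 and the median SD 0.23 (log2, n = 6). A range of at least 2-fold was found in 2048 genes, 17.7% of those detected, 430 reached 4-fold and 43 reached 16-fold. Just above the limit, within 0.05 on the log2 scale, lay 236 genes, and 242 lay as close below it. In 10 equal bins of mean signal the share with a 2-fold range was 5.26% in the dimmest bin, 25.9% in bin 4 and 8.97% in the brightest.

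**Figure D1:**
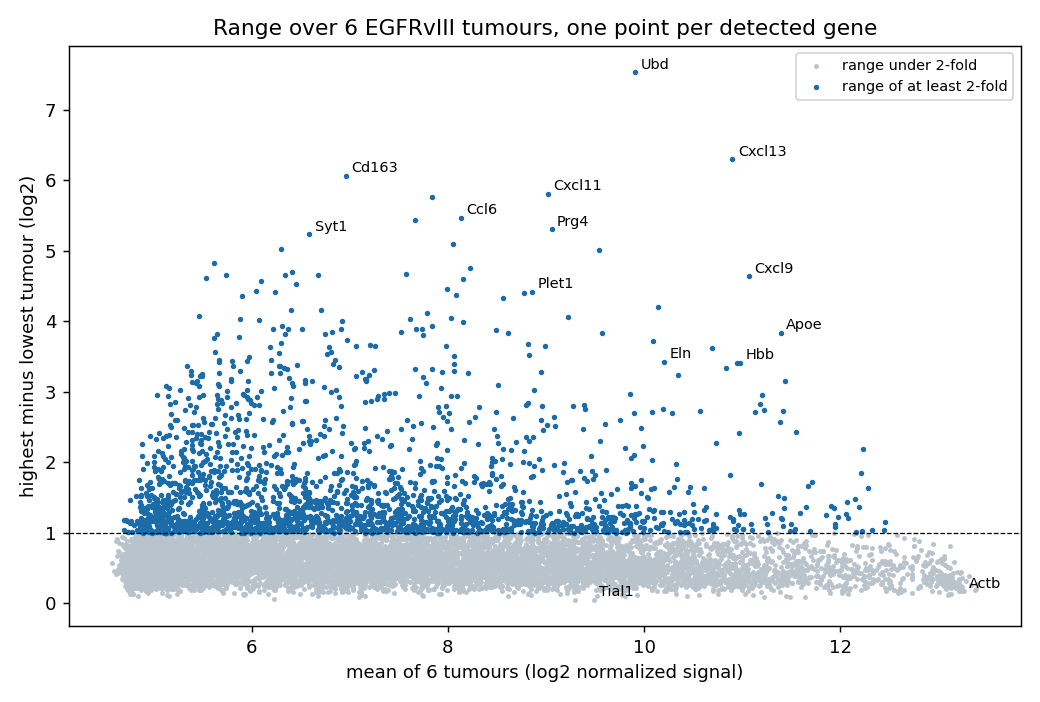
Difference between the highest and the lowest of 6 EGFRvIII tumours (log2) against the mean signal (log2), one point per detected gene, with the 2-fold limit as a dashed line. Ubd, Cxcl13 and Cxcl11 lie far above the limit at middle to high brightness, while Actb and Tial1 lie close to 0.

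The gene with the largest spread was Ubd, which encodes the ubiquitin-like protein FAT10, a tag for proteasomal degradation that interferon gamma and TNF induce. Ubd was at 12.38, 5.01, 11.93, 12.33, 5.25 and 12.54 in rats 1 to 6, a 185-fold range. The tumours of rats 2 and 5 were low and the other 4 were high, with nothing between. Cxcl13, a chemokine for B cells and some T cells, followed with 12.90, 6.91, 12.82, 11.86, 7.71 and 13.20. Cxcl11 was at 10.66, 5.66, 10.69, 9.81, 5.82 and 11.47, and Cxcl9 at 12.40, 8.40, 12.61, 11.48, 8.49 and 13.03. The same 2 tumours were lowest in each, and rat 6 was highest. This order was the commonest of all: rats 2 and 5 were the lowest pair in 462 of the 2048 variable genes (22.6%), ahead of rats 1 and 6 with 255 (12.5%).

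**Figure D2:**
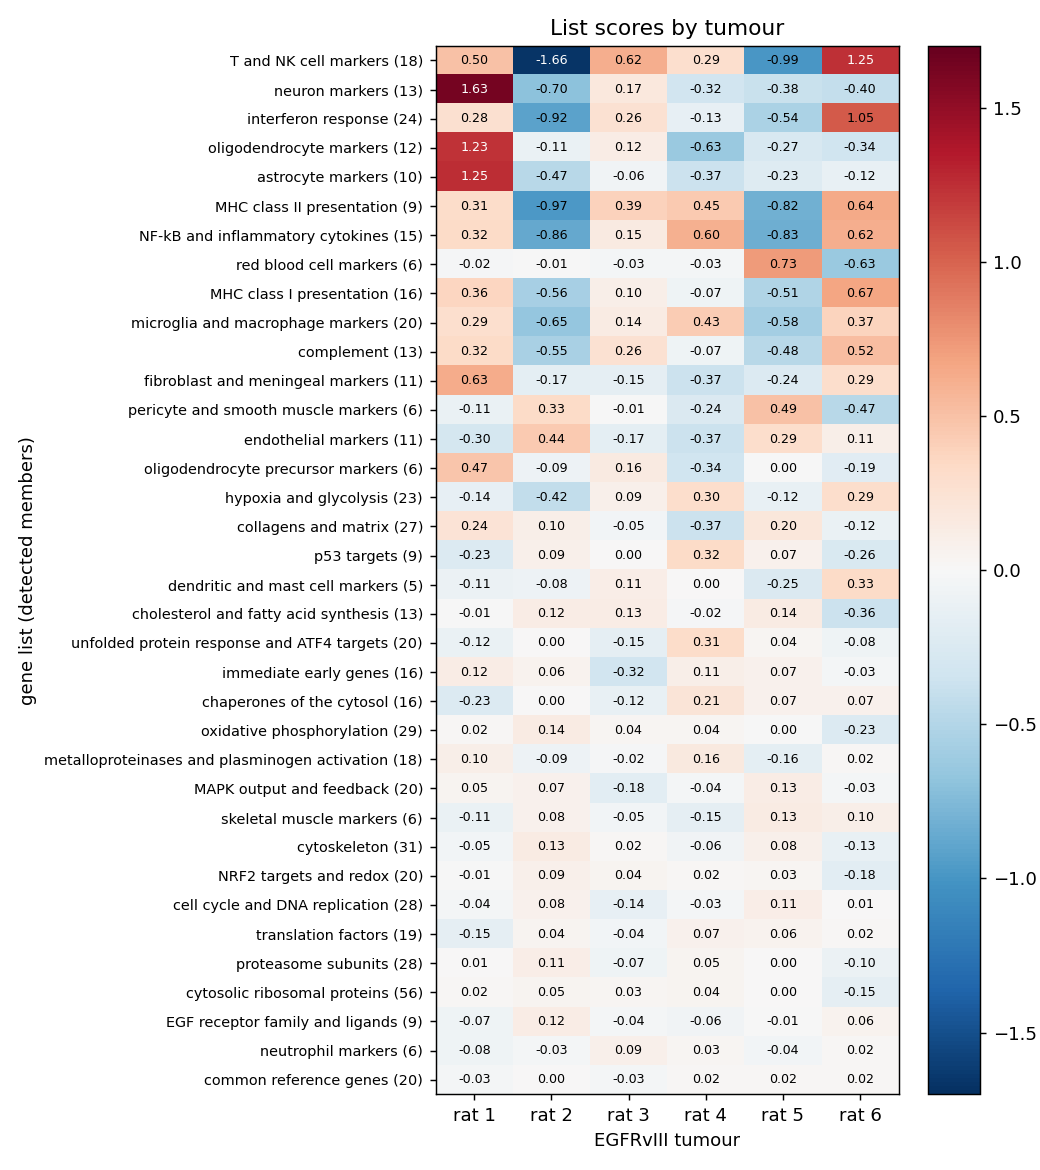
Score of each gene list (mean log2 deviation of its detected members from their mean over 6 tumours) in each EGFRvIII tumour, for lists with at least 5 detected members, ordered by the range of the score; the number of members is in brackets. Immune lists are lowest in rats 2 and 5, brain lists are highest in rat 1, and the common reference genes stay between -0.03 and 0.02.

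Markers of T and NK cells were the list with the widest score, from -1.66 in rat 2 and -0.99 in rat 5 to 1.25 in rat 6. Of 21 on the array 18 were detected, and 17 of these had a range of at least 2-fold against 17.7% of all genes. Every one of the 18 was highest in rat 6, the highest tumour for 21.7% of all detected genes, and rats 2 and 5 were the lowest pair for 14 of the 17. Summed on the linear scale, the list came to 917 and 1743 signal units in rats 2 and 5 and to 4650 to 8730 in the other 4. Cd5, Ncr1 and Foxp3, markers of T cells, NK cells and regulatory T cells, were not detected.

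Cd3d, a chain of the T cell receptor complex, was at 9.00, 5.18, 9.17, 8.55, 6.42 and 9.63 in rats 1 to 6. Cd3g, another chain of that complex, was at 9.23, 6.24, 9.75, 9.04, 7.33 and 10.07. Cd8a, the coreceptor of cytotoxic T cells, was at 10.26, 6.51, 9.76, 10.40, 7.86 and 10.57. All 3 genes were low in rats 2 and 5 without overlap with the other 4 tumours, and rat 2 was the lower of the pair. Killer cell genes had the same order: Nkg7, a granule protein, had a 14.6-fold range, the pore-forming Prf1 a 9.70-fold range, and the receptor Klrd1, not detected in rat 2, at least a 10.8-fold range. Cd4, the coreceptor of helper T cells, moved less, with 5.06 in rat 5, 5.37 in rat 2 and 6.64 in rat 6. Zap70, a signalling kinase, was an exception to the order, with its lowest value in rat 4 at 6.20.

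Further lymphocyte genes among the most variable were Cd69, an early activation marker, Ptprcap, Lag3, an inhibitory receptor, and Cst7. Lag3 was at 8.56, 5.09, 7.15, 7.07, 5.10 and 8.83 in rats 1 to 6. Ifng itself, which encodes interferon gamma and was picked after its values were seen, was at 6.21, 4.75, 6.10, 6.00, 4.84 and 7.35. It was not detected in rat 2, so its range was at least 5.71-fold. Ccl5, a T cell chemokine, broke the pairing of rats 2 and 5: rat 2 stood alone at 7.13, while rat 5 at 8.80 lay above rat 4 at 8.45. Plac8, Ms4a7 and the lipoprotein gene Apoe followed the common order, Apoe with 9.28 in rat 2, 9.33 in rat 5 and 11.74 or more in the other 4.

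Of 27 interferon response genes on the array 24 were detected, and 20 had a range of at least 2-fold. Rat 6 was highest for 20 of the 24, and the score ran from -0.92 in rat 2 through -0.54 in rat 5 and -0.13 in rat 4 to 1.05 in rat 6. Within the list the order of the other tumours was not uniform. Cxcl10 was at 9.75, 7.28, 9.11, 9.23, 7.60 and 10.31 in rats 1 to 6. Irf1, the transcription factor that interferon gamma induces, was at 11.40, 9.16, 11.09, 11.22, 9.62 and 12.50, and the GTPase Gbp2 at 11.71, 9.56, 10.99, 10.71, 9.58 and 11.84. In these 3 genes rats 2 and 5 lay together below the rest. Some other members were arranged otherwise. The antiviral GTPase Mx1 was at 8.52, 7.62, 8.89, 8.21, 8.46 and 10.26, and Mx2 at 6.88, 6.28, 6.90, 5.71, 7.22 and 8.51. Oas1a, a sensor of double-stranded RNA, was at 5.42, 5.74, 5.48, 5.45, 6.21 and 6.83. For Mx2 and Oas1a rat 5 was the second highest tumour, and rat 2 was not the lowest. Usp18, a brake on type I interferon signalling, and Rtp4 kept the common order, with rats 2 and 5 lowest. In all, rats 2 and 5 were the lowest pair for 11 of the 20 variable members. Ifit1, Ifit3 and Isg15 were not detected, and Bst2, Oasl and Ifih1 were among the 4 that stayed under 2-fold.

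Promoters of the interferon genes are printed because the members moved together and the letters bound by interferon-activated factors can be looked for in them. The windows are from RefSeq, build GRCr8, and run from 250 bases before to 50 bases after the start of the gene, in the direction of the gene. Capitals mark a match to the interferon-stimulated element (GAAA, any 2 bases, GAAA) or the gamma-activated site (TTCNNNGAA), searched on both strands. Cxcl10 lies at chr14:15988816-15989115 (+), Gbp2 at chr2:234005477-234005776 (+), Irf1 at chr10:38417685-38417984 (+) and Ubd at chr20:1392636-1392935 (-).
Cxcl10: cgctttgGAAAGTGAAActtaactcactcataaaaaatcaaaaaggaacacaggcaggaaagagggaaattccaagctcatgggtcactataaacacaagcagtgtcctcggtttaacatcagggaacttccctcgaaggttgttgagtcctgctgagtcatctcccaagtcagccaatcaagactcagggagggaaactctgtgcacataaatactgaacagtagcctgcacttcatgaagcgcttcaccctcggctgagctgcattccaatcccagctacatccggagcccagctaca
Gbp2: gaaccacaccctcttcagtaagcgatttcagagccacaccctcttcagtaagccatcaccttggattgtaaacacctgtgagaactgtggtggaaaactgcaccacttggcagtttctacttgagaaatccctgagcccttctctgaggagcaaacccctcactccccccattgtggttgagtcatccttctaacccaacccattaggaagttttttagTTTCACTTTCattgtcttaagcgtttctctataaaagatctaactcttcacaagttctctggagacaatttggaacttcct
Irf1: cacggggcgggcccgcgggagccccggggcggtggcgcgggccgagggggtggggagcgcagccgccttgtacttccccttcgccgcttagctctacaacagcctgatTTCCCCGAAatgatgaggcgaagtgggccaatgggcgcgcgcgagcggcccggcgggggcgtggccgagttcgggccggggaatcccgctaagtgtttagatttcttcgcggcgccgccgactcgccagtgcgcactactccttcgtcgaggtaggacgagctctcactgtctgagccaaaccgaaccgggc
Ubd: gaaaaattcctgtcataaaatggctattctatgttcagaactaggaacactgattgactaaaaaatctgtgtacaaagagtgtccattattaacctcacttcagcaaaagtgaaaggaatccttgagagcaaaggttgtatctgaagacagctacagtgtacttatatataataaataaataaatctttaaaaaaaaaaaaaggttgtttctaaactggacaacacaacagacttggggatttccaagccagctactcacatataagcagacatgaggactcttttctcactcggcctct
The match of Cxcl10 covers positions -243 to -234 from the gene start, that of Gbp2 positions -31 to -22, where it stands as its reverse complement, and that of Irf1 positions -142 to -134. The window of Ubd holds neither run of letters. Of the 24 detected interferon genes 19 had a promoter in the table, and 10 of these (52.6%) hold the interferon-stimulated element, against 3.77% of all 27457 promoters. The gamma-activated site is in 6 of the 19 (31.6%), among them Cxcl9 and Cxcl11, against 8.68% of all promoters. Among all detected genes with a promoter, the element is in 2.97% and the site in 6.98%. In the T and NK cell list the element is in 1 of 14 promoters (7.14%) and the site in 3 (21.4%). The search for the gamma-activated site was added after the data were seen. Such a match describes the letters in the window and is not a measured binding site.

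Antigen presentation had the same order. Of 16 detected genes of MHC class I presentation 13 had a range of at least 2-fold, and rats 2 and 5 were the lowest pair for 12 of them. Psmb9, a subunit of the immunoproteasome, was at 9.23, 7.66, 8.91, 8.46, 7.78 and 9.83 in rats 1 to 6. The peptide transporter gene Tap1 was at 8.95, 7.25, 8.22, 8.41, 7.28 and 8.92. In both genes rats 2 and 5 lay below the other 4 tumours without overlap. B2m, the light chain of class I, stayed between 12.86 and 13.17, near the top of the scale where ranges were narrower, and Calr, a chaperone of class I loading, between 12.51 and 13.05. Tapbp, which holds the class I molecule at the transporter, kept the common order at 10.68, 9.28, 10.06, 9.70, 9.26 and 10.83. RT1-S3 had a 7.04-fold range and RT1-A1 a 3.60-fold range, but rat RT1 genes are near-identical copies and their probes may read each other's transcripts.

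All 9 class II presentation genes were detected, 6 had a range of at least 2-fold, and rats 2 and 5 were the lowest pair for all 9. Ciita, the master regulator of class II transcription, was at 7.60, 4.79, 7.34, 7.72, 5.62 and 7.79 in rats 1 to 6 and was not detected in rat 2, a range of at least 7.74-fold. Cd74, the invariant chain that accompanies class II molecules, was at 11.96, 9.66, 11.78, 11.74, 9.76 and 12.40. Rats 2 and 5 were at nearly the same level of Cd74, below each of the others. RT1-Ba and RT1-Db1 had ranges of 5.93-fold and 4.57-fold, while RT1-Da, among the 100 brightest genes, had 1.76-fold.

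**Figure D3:**
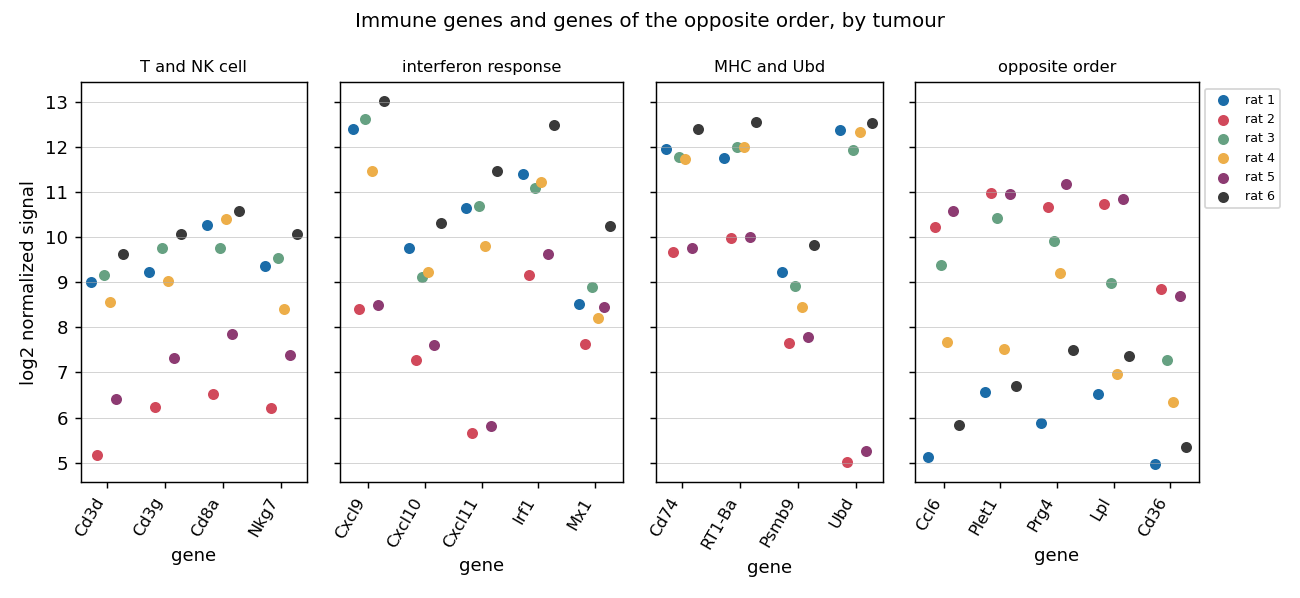
Log2 normalized signal of 18 genes in each of 6 EGFRvIII tumours, one point per tumour coloured by rat, in 4 panels (T and NK cell markers; interferon response; MHC genes and Ubd; genes of the opposite order). Rats 2 and 5 lie below the other 4 tumours for all genes of the first 3 panels other than Mx1, and above them for all 5 genes of the last.

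Inflammatory cytokines of the NF-kB list had a range of at least 2-fold in 12 of 15 detected members, and rats 2 and 5 were the lowest pair for 10 of the 12. Here rat 4, at a score of 0.60, stood level with rat 6 at 0.62. Il1b, an inflammatory cytokine, was at 9.02, 6.06, 9.14, 8.90, 6.77 and 9.32 in rats 1 to 6. Ptgs2, the inducible enzyme of prostaglandin synthesis, was at 7.86, 4.73, 6.71, 7.59, 5.35 and 7.05, and Vcam1, an adhesion molecule, at 7.75, 5.59, 8.42, 6.74, 5.73 and 8.77. Ccl7, a monocyte chemokine, peaked in rat 4, at 10.42 against 9.22 in rat 6. Cxcl1, a neutrophil chemokine, had neither this order nor its reverse, with 10.26 in rat 2 and 10.18 in rat 4 at the top and 9.07 in rat 3 at the bottom. Tnf, Il6, Cxcl2, Ccl20 and Lif were not detected.

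All 20 markers of microglia and macrophages on the array were detected, and 14 had a range of at least 2-fold, with rats 2 and 5 the lowest pair in 10. The score left rats 2 and 5, at -0.65 and -0.58, apart from the others, which lay between 0.14 and 0.43. C1qa, C1qb and C1qc, the chains of the first complement component, had ranges of 6.62-fold, 5.39-fold and 6.54-fold, and C1qc was at 11.97, 9.72, 11.49, 11.50, 9.69 and 12.40 in rats 1 to 6. The scavenger receptor Cd163 had the widest range in the list. Cd163 was at 9.33, 4.33, 6.43, 10.40, 4.70 and 6.58 and was not detected in rats 2 and 5, a range of at least 48.6-fold. Rats 1 and 4 were thus high, and rats 3 and 6 were intermediate. Arg1, an enzyme of arginine breakdown in alternatively activated macrophages, was at 11.14, 8.88, 10.66, 12.50, 9.42 and 11.58, again with rat 4 highest.

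Other macrophage genes varied less or had another order. Spp1 (osteopontin) was at 12.05, 12.07, 12.05, 11.83, 11.97 and 12.20 in rats 1 to 6, and Fcer1g, a signalling chain of Fc receptors, had a narrow range with the same 2 tumours lowest, at 12.16 in rat 5, 12.31 in rat 2 and 12.47 to 12.63 in the other 4. Mrc1, the mannose receptor, was at 9.62, 10.19, 10.34, 10.78, 10.79 and 8.76, lowest in rat 6. Laptm5, a lysosomal protein of blood cells, was highest in rat 2, at 10.89, and lowest in rat 1, at 9.60. Beside the T cell and interferon values above, the summed macrophage list was 23258 and 24194 in rats 2 and 5 and 38766 to 45879 in the other 4. The part of cell composition in the interferon and MHC values was not tested. Of 13 detected complement genes 10 had a range of at least 2-fold. Serping1, the inhibitor of the first component, was at 9.12, 6.00, 8.25, 8.11, 6.43 and 8.75, while complement factor B (Cfb) and the complement inhibitor Cd59b were higher in rats 2 and 5 than in rat 1.

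A set of genes had the opposite order, with rats 2 and 5 at the top. They were the highest pair in 217 of the 2048 variable genes (10.6%), behind rats 3 and 6 with 268 (13.1%), rats 1 and 6 with 263 (12.8%) and rats 4 and 6 with 224 (10.9%). Ccl6, a chemokine of myeloid cells, was at 5.12, 10.23, 9.38, 7.67, 10.58 and 5.84 in rats 1 to 6, a 44.3-fold range. Plet1, a surface protein of epithelial progenitors and some myeloid cells in mice, was at 6.57, 10.99, 10.42, 7.52, 10.96 and 6.70. Prg4, the lubricant lubricin, was at 5.88, 10.66, 9.91, 9.21, 11.19 and 7.49. Rat 3 was the next highest in all 3 genes, and rats 1 and 6 were lowest.

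Single genes of lipid uptake were in this set, though no lipid list was tested and Apoe had the reverse order. Lpl, which frees fatty acids from lipoproteins, was at 6.51, 10.73, 8.99, 6.96, 10.84 and 7.36 in rats 1 to 6. Cd36, a fatty acid uptake receptor, was at 4.96, 8.85, 7.27, 6.35, 8.69 and 5.36. Pparg, the transcription factor that drives lipid uptake and storage genes, was at 4.26, 8.14, 6.66, 5.33, 8.67 and 4.37. It was not detected in rats 1 and 6, and its range was at least 15.6-fold. The fatty-acid binding protein gene Fabp4 also had rats 2 and 5 at the top and rats 1 and 6 at the bottom. Its steps outside rat 1 were small: it was not detected in rat 1 and lay between 6.16 and 6.98 in all others. S100a8, a calcium-binding protein of neutrophils and monocytes, shared the order with 4.99, 7.84, 7.48, 6.21, 7.84 and 4.97, but S100a9, Elane, Cxcr2, Lcn2 and Mmp8 of the neutrophil list were not detected. Pparg was picked after its values were seen.

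Brain markers divided the tumours along another line, with rat 1 alone at the top. Of 23 neuron markers on the array 13 were detected and 10 had a range of at least 2-fold, all 10 highest in rat 1, the highest tumour for 17.9% of all detected genes. The neuron score was 1.63 in rat 1, 0.17 in rat 3 and -0.32 to -0.70 in the rest. Syt1, the calcium sensor of synaptic vesicles, was at 9.86, 4.62, 7.09, 6.22, 6.07 and 5.66 in rats 1 to 6 and was not detected in rat 2, a range of at least 32.3-fold. Nrgn, a postsynaptic calmodulin-binding protein, was at 10.58, 6.69, 7.75, 6.89, 6.94 and 7.55. Rat 3 was the second highest for Syt1, Nrgn, Snap25, Nefl and Gad1. Syn1 and Map2 were detected on no array, and Camk2a and Nefh stayed under 2-fold. Among the 10 markers that missed the 3-array limit, Uchl1 at 7.22, Vsnl1 at 6.54 and Slc17a7 at 5.81 were highest in rat 1. Rbfox3 and Sncb of the same 10 were highest in rat 2, near the floor at 4.80 and 4.35. Syp, Cck and Eef1a2, a synaptic vesicle protein, a neuropeptide and a neuronal elongation factor, were further genes in which rat 1 stood alone.

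Glial genes of mature brain were high in the same tumour. Of 10 detected astrocyte markers 7 had a range of at least 2-fold and rat 1 was highest for 6 of these. Gfap, the astrocyte filament, was at 11.31, 8.79, 9.39, 8.51, 9.10 and 8.54 in rats 1 to 6. Sparcl1, an astrocyte matrix protein, was at 11.02, 8.72, 9.02, 8.38, 8.92 and 8.43. In both genes rat 1 was at least 1.92 above every other tumour (the narrower gap was that of Gfap), and the other 5 lay close together. Gja1, the gap junction protein connexin 43, was bright and even, at 12.07 to 12.57. Of 12 detected oligodendrocyte markers 9 had such a range, all 9 highest in rat 1. Mbp, the myelin basic protein, was at 8.63, 6.29, 6.61, 5.44, 5.77 and 5.56, and rat 4 was lowest for 7 of the 9. Mt3, a metallothionein of neurons and astrocytes, was at 10.96, 7.73, 8.67, 7.62, 7.62 and 6.36. Of 6 oligodendrocyte precursor markers 3 were highest in rat 1, among them Olig1 and Pdgfra with ranges of 2.51-fold and 2.23-fold, while Cspg4 and Vcan were highest in rat 5 and Olig2 in rat 4.

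**Figure D4:**
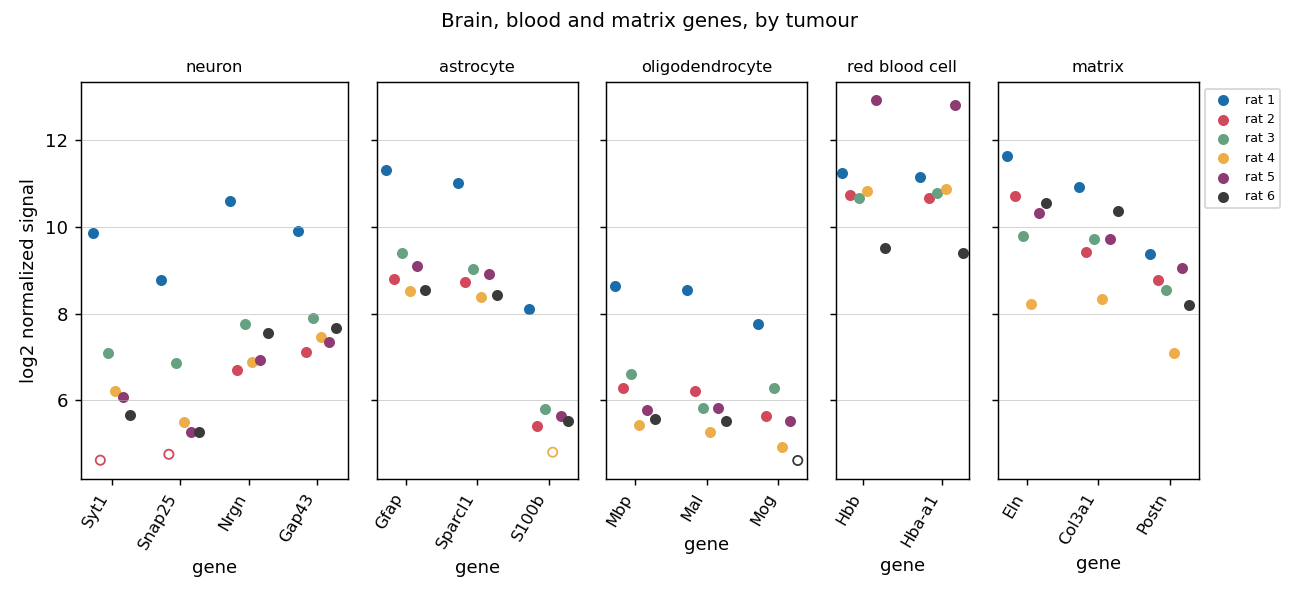
Log2 normalized signal of 15 neuron, astrocyte, oligodendrocyte, red blood cell and matrix genes in each of 6 EGFRvIII tumours, coloured by rat; open circles mark a probe not detected on that array. Rat 1 stands above the other tumours for the brain genes, rat 5 for both haemoglobin genes, and rat 4 lies lowest for the 3 matrix genes.

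In all, 1 tumour stood at least 2-fold above the next in 233 genes (2.01% of those detected), and 149 of these were rat 1, 48 rat 6, 23 rat 4, 6 rat 2, 5 rat 5 and 2 rat 3. A tumour stood alone at the bottom in 67 genes. Genes in which rat 1 was alone at the bottom included Prg4, Fabp4, Angpt2, a vessel-destabilising ligand of the receptor Tek, and Il1rn, the interleukin 1 receptor antagonist. Angpt2 was at 6.45, 8.18, 7.96, 7.98, 8.40 and 8.27 in rats 1 to 6. The proto-oncogene Myc was also lowest in rat 1, at 8.37, and highest in rat 4, at 10.25.

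Genes of immune cells were among those in which rat 6 stood alone with the widest gaps. Acod1, which makes itaconate in activated macrophages, was at 6.94, 4.24, 6.94, 6.19, 4.22 and 9.25 in rats 1 to 6 and was not detected in rats 2 and 5, a range of at least 21.9-fold. Dnase1l3, a nuclease secreted by dendritic cells and macrophages, was at 5.72, 6.25, 6.05, 4.63, 6.50 and 9.33. Clic2 was at 7.31, 6.11, 7.96, 7.93, 6.23 and 10.15. Ccl19, a ligand of the dendritic and T cell receptor Ccr7, Adgre1, the macrophage antigen F4/80, and Cd7, a T cell antigen, completed the 6 with the widest gaps. The only B cell marker detected, Cd79b, was likewise highest in rat 6, at 6.17 against at most 4.96, while Ms4a1, Pax5, Blnk, Mzb1 and Cd22 missed the 3-array limit. Ms4a1, detected on 1 array, was at 6.24 in rat 6 and at most 4.56 in the others, Blnk, detected on 2, at 5.65 in rat 6, and Mzb1, detected on 1, at 5.23 in rat 6. Pax5 and Cd22 were detected on no array.

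At the other end rat 6 was alone in Per1, a clock gene, at 9.06, 9.29, 7.33, 7.78, 8.92 and 5.99 in rats 1 to 6. Mt1, a metal-binding metallothionein, was at 10.88, 12.10, 12.20, 11.10, 11.70 and 9.25. Rat 6 was the lowest tumour for 17 of 29 detected oxidative phosphorylation genes and 9 of 13 of cholesterol and fatty acid synthesis, against 2731 of all 11586 genes. The scores of these lists in rat 6 were -0.23 and -0.36. These are small steps next to the immune lists: of their members only Ndufa1 and Ndufa5 of the first list and Idi1 of the second reached 2-fold. Nor was the low end particular to them. Rat 6 was also lowest for 26 of 56 cytosolic ribosomal protein genes, 14 of 28 proteasome subunits and 11 of 20 NRF2 targets and redox genes. Cox6a2, a muscle-type subunit of cytochrome oxidase outside these lists, was at 7.71, 7.79, 7.97, 7.97, 8.07 and 5.60, and rat 6 again stood alone.

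Some stress genes were highest in rat 4, and many variable matrix genes were lowest there. All 5 variable members of the unfolded protein response and ATF4 list were highest there, and it was highest for 11 of the 20 detected, against 16.8% of all detected genes and 13.9% of the variable ones. In all 5 of the 20 varied by 2-fold, not far from the 17.7% of all genes. Trib3, a stress-induced pseudokinase, was at 6.55, 6.88, 6.84, 7.87, 7.005 and 6.19 in rats 1 to 6. Asns, asparagine synthetase, was at 6.89, 7.83, 7.42, 8.24, 7.82 and 6.72. Herpud1, Chac1 and Phgdh were the other 3, with ranges of 2.11-fold, 2.11-fold and 2.13-fold, while the endoplasmic reticulum chaperones Hspa5 and Hsp90b1 stayed under 2-fold. Sesn2 and Slc7a11 of the same list were not detected. The high end was not particular to this list, as rat 4 was also highest for 9 of 16 detected chaperones of the cytosol. Genes in which rat 4 stood alone high included Ccn3, a matricellular regulator, at 9.86 against at most 8.17, and Car2, a carbonic anhydrase, at 9.94 against at most 8.51. Spint1, Il24, Car4 and Srgn were the other 4 with the widest gaps. Of 9 detected p53 targets 5 had a range of at least 2-fold, against 17.7% of all genes. Rat 4 was highest in 4 of these 5, against 13.9% of all variable genes. Among the 4 were the death gene Pmaip1 and the inhibitor of p53 Mdm2, though Mdm2 at 10.05 lay close to rat 2 at 9.90. Bax, Sesn2, Fas, Plk2 and Perp of the p53 list missed the 3-array limit.

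Matrix genes were lowest in rat 4 for 10 of the 13 that varied, against 375 of all 2048 variable genes. Over all 27 detected members rat 4 was lowest for 13 and rat 6 for 10. Eln, elastin, was at 11.64, 10.72, 9.79, 8.22, 10.33 and 10.54 in rats 1 to 6, a 10.7-fold range. Col3a1, a fibrillar collagen, was at 10.93, 9.43, 9.73, 8.33, 9.73 and 10.37, and Postn, a matricellular protein, at 9.38, 8.79, 8.54, 7.10, 9.04 and 8.19. Rat 4 lay more than 1 below every other tumour in all 3. The related chains Col1a2 and Col5a2 and the crosslinking enzyme Lox kept within 2-fold. Fibroblast and meningeal markers were highest in rat 1 for 7 of 11 detected. Ptgds, a prostaglandin synthase of the meninges and choroid plexus, was at 9.95, 6.16, 7.26, 7.95, 5.83 and 9.60, high in rats 1 and 6 alike.

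Vessel and blood genes had their own orders. Of 11 detected endothelial markers 8 had a range of at least 2-fold, and rats 2 and 5 were the highest pair for 6 of the 8. Slco1c1, a thyroid hormone transporter of brain endothelium, was at 6.86, 8.59, 6.62, 5.44, 7.99 and 7.50 in rats 1 to 6. Emcn, an endothelial sialomucin, was at 6.67, 8.72, 7.50, 8.17, 8.42 and 7.85, but Plvap, the diaphragm protein of leaky vessels, was lowest in rat 2 at 5.90 and highest in rat 6 at 8.30. The pericyte channel genes Abcc9 and Kcnj8 were highest in rats 2 and 5 as well. Haemoglobin separated rat 5 from all others. Hbb was at 11.24, 10.72, 10.67, 10.83, 12.92 and 9.50, and Hba-a1 at 11.16, 10.66, 10.78, 10.87, 12.81 and 9.40. Both were highest in rat 5 and lowest in rat 6; haemoglobin copies share sequence and are not told apart firmly by probes. The part of blood content in the other differences between tumours was not tested.

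Hypoxia and glycolysis genes varied in 9 of 23 detected members (39.1%), against 17.7% of all detected genes. Rat 4 was highest for 11 of the 23 and rat 6 for 9, against 16.8% and 21.7% of all detected genes. Rat 2 was lowest for 12, against 1484 of all 11586 genes. Slc16a3, the lactate exporter, was at 9.21, 7.92, 9.48, 10.25, 8.84 and 10.68 in rats 1 to 6, and Adm, a vasodilator peptide, at 6.98, 7.10, 8.14, 8.67, 7.89 and 9.16. Vegfa, the vascular growth factor, changed little, from 8.21 to 8.86, and Pgk1 and Pfkp stayed within 1.38-fold and 1.16-fold. Pfkl, the liver type of phosphofructokinase, broke the order with its highest value, 9.01, in rat 1 and its lowest, 7.19, in rat 6. The hypoxia element (ACGTG or GCGTG) is in 13 of the 20 promoters of the list in the table (65.0%). This is near the 61.3% of all detected genes, and the share of all promoters is 42.9%.

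Growth factor output was variable without a common order. Of 20 detected genes of MAPK output and feedback 11 (55.0%) had a range of at least 2-fold, against 17.7% of all detected genes. Yet the score stayed between -0.18 in rat 3 and 0.13 in rat 5. Spred1, an inhibitor of Ras signalling, was at 8.54, 7.29, 7.39, 7.22, 7.85 and 9.26 in rats 1 to 6. Dusp6, an ERK phosphatase, was at 9.34, 9.73, 10.17, 9.75, 10.51 and 10.49, and Epha2, a receptor kinase, at 6.81, 7.99, 7.14, 7.64, 7.85 and 6.61. Each of the 3 genes had a different highest tumour. Epha4, not detected in rat 2, was high in rat 1 only, at 7.81 against at most 5.74. The cyclin Ccnd1 held at 12.40 to 12.63. Of 16 detected immediate early genes 6 (37.5%) varied, against the same 17.7%. Fos, a transcription factor of the AP-1 complex, was at 8.82, 8.04, 6.67, 6.49, 6.99 and 6.97. Egr1 and Zfp36, a zinc finger factor and an RNA decay factor of the same early response, were also highest in rat 1, at 9.79 and 10.49. Over all 16 detected members, however, rat 4 was highest for 7 and rat 1 for 4.

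The order of the tumours over all detected genes was summarised by principal components. The first took 43.4% of the variance and set rats 2 and 5, at 33.4 and 26.9, against rats 6 and 1, at -29.2 and -21.5. The second took 25.7% and set rat 1, at 35.5, against rat 6, at -22.5. The third took 15.7% and was led by rat 4, at 28.5.

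**Figure D5:**
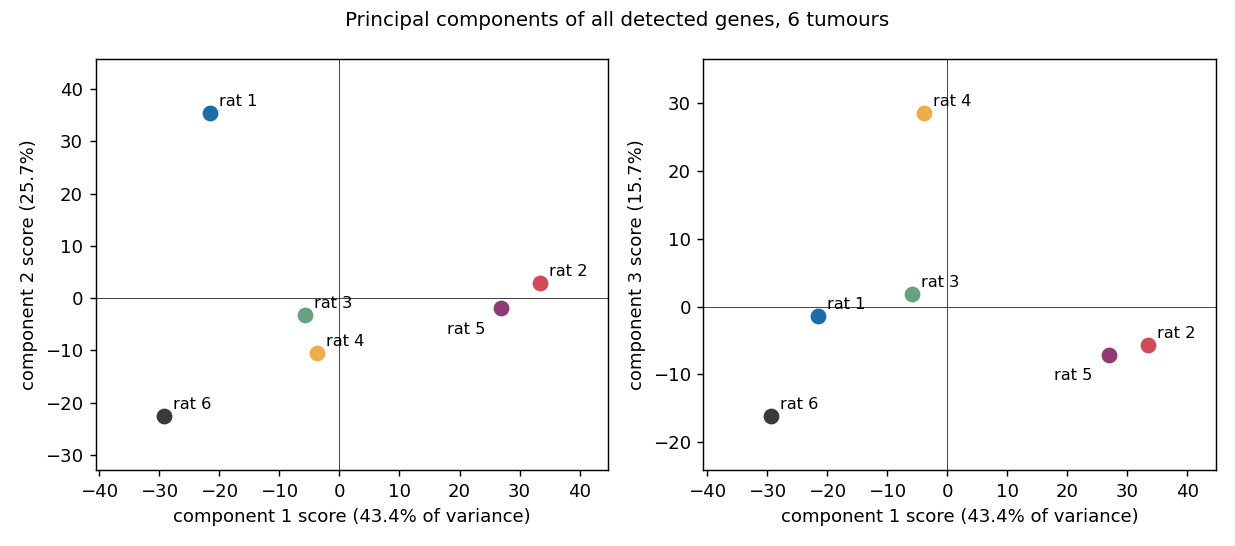
Scores of 6 EGFRvIII tumours on the first component against the second (left) and the third (right), over all detected genes, with the share of variance on each axis. Rats 2 and 5 lie together on the right, rat 1 at the top of the left panel, and rat 4 at the top of the right panel.

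Clustering of the 2048 variable genes into 6 groups gave the same lines as a description, with no test. The largest group, of 713 genes, was low in rats 2 and 5 and high in rat 6, and held all 17 variable T and NK cell markers, 18 of 20 interferon genes, all 13 of MHC class I, all 6 of class II and 11 of 14 of the macrophage list. Nearest to its centre were Cfap141, Icam1, Tifab, Faslg, S1pr4 and Clic2, of which Icam1 is an adhesion molecule and Faslg the death ligand of T and NK cells. A group of 583 genes was high in rat 1 and held every variable neuron, astrocyte and oligodendrocyte marker, and Mobp, Sparcl1, Lsamp, Camk2n1, Gfap and Tf lay nearest to its centre. A group of 352 genes was high in rats 2 and 5, with Prodh2, Alox5, Tnnt2, Net1, Pabir2 and Abhd5 at its centre; Alox5 makes leukotrienes and Abhd5 activates fat breakdown. The group of 227 genes was low in rat 1 and centred on Angpt2, Zfp870, Eps8l2, Zfp472, Nedd9 and Fbxo30. That of 137 genes was high in rat 4 and centred on Ms4a4a, Trib3, Ccl17, Kitlg, Zc3h8 and Car4, and the last, of 36 genes, was low in rat 3 and centred on Osm, Cxcl1, Evc2, Srm, Mrps2 and Copz1.

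Single genes were also set beside their closest companions, by Pearson's r over the 6 tumours among 1534 variable genes with a symbol, as a description. Cxcl11 was nearest to Cxcl9 (0.998), Cd69 (0.997) and Cd247 (0.995). Cd3d was nearest to Cd3g (0.996), Il1b (0.993) and Lck (0.991). Syt1 was nearest to Cadps (0.994), Nefl (0.992) and Chgb (0.991). For Cd163, the companions were B3gnt7 (0.982), Mmp7 (0.968) and Slc13a3 (0.958). With 6 tumours and a few separated values, such coefficients are high for many genes. The median r between members was 0.91 for T and NK cell markers, 0.87 for MHC class II, 0.79 for class I, 0.74 for astrocyte, 0.73 for oligodendrocyte and 0.70 for interferon genes. It was lower for neuron markers at 0.60, complement at 0.36 and macrophage markers at 0.26, and 0.012 between all genes.

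Scores of 8 lists were compared in 28 pairs by exact two-sided permutation tests over 6 tumours with Benjamini-Hochberg adjustment. No pair passed an adjusted p of 0.05. With 6 tumours an exact test has few possible arrangements, and a single pair can hardly pass after adjustment over 28. The lack of a pass therefore does not show that scores are unrelated. The lowest adjusted p, 0.0778 for Pearson's r, was that of the T and NK cell and interferon scores. An unadjusted p under 0.05 was found in 4 pairs for Pearson's r and 1 for Spearman's rho. Neuron, macrophage, T and NK cell and fibroblast scores fell into separate clusters of tumours, so no pooled coefficient is given for them. Among the 6 pairs left, the highest was that of the cell cycle and endothelial scores, with r = 0.770 (exact permutation p = 0.0806, adjusted 0.311) and rho = 0.714 (exact permutation p = 0.136, adjusted 0.544). When the 2 tumours with the most extreme cell cycle scores were left out, r over the 4 that remained was 0.974. Against the array's 75th percentile of signal and its number of detected probes, none of 16 relations passed either, with a lowest adjusted p of 0.507 by the same exact permutation test.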

How the data were processed

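The authors deposited a signal intensity per probe and array, not normalized between arrays and with a background already subtracted, since dim probes are below 0; the sources used here name no software for this step. The deposited detection score is a fraction from 0 to 1, read as 1 minus a detection p because it is high for bright probes. The authors' log2 value table has equal quantiles on all arrays, its steps are not stated, and it served as an alternative; the submitters' processing notes name Partek.

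Intensities of all 12 arrays were corrected and quantile-normalized with neqc of limma 3.58.1 in R 4.3.3 (offset 16), and the 6 EGFRvIII arrays were then described with Python 3.11.15. A gene was its probe with the highest mean. Of 22523 probes, 13793 had 1 symbol in the platform annotation and 8730 had none. A range of at least 2-fold was the limit for variable genes. A score is the mean log2 deviation of the list's detected members from their means over 6 tumours. The 6 co-varying groups came from clustering of variable genes.

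Genes and lists were chosen with earlier results of these data known. The rule names the 20 brightest genes, the 15 steadiest and the 20 most variable, genes in which a tumour stood alone (up to 6 high and 4 low per tumour), in each list up to 4 most and 2 least variable members, all reference genes and EGF receptor family members, 3 companions of leading genes and 6 genes at each group's centre. Genes named beyond it, which were chosen after their values were seen, are C1qb, Calr, Ccl7, Cd4, Cd59b, Cfb, Col5a2, Cxcr3, Dusp6, Gad1, Gbp2, Hsp90b1, Hspa5, Ifih1, Ifng, Laptm5, Mrc1, Mx1, Mx2, Ndufs3, Nes, Nkg7, Oas1a, Phgdh, Pparg, Prf1, Psmb6, Psmd6, Rtp4, Tapbp, Usp18, Vegfa and Vim. Cell type markers below the 3-array limit that are named with values were also chosen after their values were seen. The scripts were tested on simulated data. The number of arrays limits the precision.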

Additional observations from a re-analysis of the deposited data

Results flagged for a closer look

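Among 288 values examined, 39 had a tumour whose gap to the nearest of the other 5 took up so much of the whole range that it passed Dixon's 95% critical value. Chance would give about 1 in 20 such values where none was chosen, but many of the named genes were chosen because a tumour stood alone in them or as centres of groups that such a tumour set, so their number is no measure against chance. Causes were not tested.

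Of the list scores, 6 had such a tumour. Rat 1 stood high in the neuron score at 1.63 and the astrocyte score at 1.25. Rat 6 stood low in the scores of cholesterol and fatty acid synthesis at -0.36, NRF2 targets at -0.18 and cytosolic ribosomal proteins at -0.15. Rat 3 stood low in the immediate early genes at -0.32.

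Of the named genes, 33 had such a tumour. Rat 1 was high in the synaptic and neuronal genes Syp at 8.98, Cck at 9.18, Nrgn at 10.58, Camk2n1 at 11.27 and Lsamp at 6.78. The same tumour was high in the glial genes Gfap at 11.31, Sparcl1 at 11.02, Mbp at 8.63 and Mobp at 7.33, and in the receptor gene Epha4 at 7.81. It was low in Angpt2 at 6.45, Il1rn at 6.29, Fabp4 at 4.595 (not detected there), Mdm2 at 8.83, Nedd9 at 6.59, Eps8l2 at 6.54, Fbxo30 at 4.92, Zfp472 at 5.97 and Zfp870 at 5.07. Rat 4 was high in Ccn3 at 9.86, Herpud1 at 10.38, Spint1 at 7.13, Il24 at 6.76, Vegfa at 8.86 and Mcrip1 at 9.90, and low in the reference gene Gusb at 9.27. Rat 6 was high in the lymphocyte genes Cd7 at 7.11 and Cd79b at 6.17 and in the vessel gene Plvap at 8.30, and low in Rps10 at 12.98, in Cox6a2 at 5.60 and in the precursor marker Cspg4 at 6.96. Rat 3 was low in the proteasome gene Psmc4 at 11.08. Mcrip1, Psmc4, Rps10, Gusb and Vegfa had ranges under 2-fold, so the gap there is a share of a narrow spread.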

How the results depend on the processing

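These ends of the order held under each of 7 other processings. Rats 2 and 5 were the lowest pair in T and NK cell, interferon, MHC class I, MHC class II, NF-kB, macrophage and complement scores. Rat 1 was highest in the neuron, astrocyte and oligodendrocyte scores and rat 5 in the red blood cell score. Other ends moved. Under median scaling the highest tumour was rat 3 for MHC class II and rat 4 for NF-kB, in place of rat 6. With detection on at least 1 array it was also rat 4 for NF-kB. Rat 6 replaced rat 4 at the top of the macrophage score with detection on all 6 arrays, and of the hypoxia score with an offset of 50. Counts past a limit moved more. Against 2048 genes with a 2-fold range, the authors' log2 table gave 4244, an offset of 50 in place of 16 gave 1146 and a 3-fold limit gave 698. Against 158 constant genes, median scaling without the quantile step gave 52, and no limit on brightness gave 441. Against 290 genes in which a tumour stood alone, the authors' log2 table gave 780, an offset of 50 gave 165, and detection on all 6 arrays also gave 165. Of 28 score pairs, 1 passed an adjusted p of 0.05 under median scaling and 1 with the authors' table, against 0. Leaving out 1 tumour at a time gave 237 (without rat 5) to 421 (without rat 6) constant genes, a count that rises by construction with fewer tumours, and 168 (without rat 1) to 459 (without rat 5) genes in which a tumour stood alone. Leaving out rat 6 gave 1373 genes with a 2-fold range and leaving out rat 5 gave 1908. The score range of 10 of 38 lists moved by more than its spread under median scaling, and of 10 with the authors' table. The causes were not tested. The authors' table has a median of 3.59 on each of these arrays, and its background step stays unknown. No paired analysis was possible because only 1 group is described and no comparison between groups is made. Of 160 genes with more than 1 detected probe, 11 had a 2-fold range by the brightest probe, and for 6 of these the other probe also did, though the probes of Arhgap9, among the 6, ordered the tumours oppositely (r = -0.951 over 6 tumours). Dim genes near the detection limit have narrowed ranges, and the brightest are held by the shared ceiling.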
